A study of Mus musculus with 8 samples.

Results

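Most of the genes described here encode matricellular proteins. These are secreted, sit in the extracellular matrix and signal to cells without being its main structural fibres. The listed genes were Thbs1, Thbs2, Thbs3, Tnc, Postn, Sparc, Spp1, Fn1, Svep1 and Tgfbi. They were chosen by symbol as a group with earlier results of these data known. Fn1, whose protein forms fibrils, is counted among the matricellular genes here. Of the 10 listed genes, 9 had a probe set with a single gene symbol, out of 19938 genes measured in all. Spp1 was not analysed here. A gene with several such probe sets would have been read from its brightest one over the 8 arrays, but each of the 9 had 1.

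Daxx, a histone chaperone and transcriptional regulator, is absent from the starting cells, which were embryonic fibroblasts of Daxx knockout mice on the FVB/N background. Daxx had been put back into the cells of 2 samples named DaxxA and 2 named DaxxB, and 4 vector samples carried the vector alone. All 8 samples share the knockout genotype, the culture in medium with serum and the trypsin harvest a day after seeding, and the stated aim was to find genes downstream of Daxx. The labels do not give the meaning of A and B, the promoter of the construct, the number of clones or whether samples of a group were separate cultures. Every p-value here thus reflects the spread between the arrays of a group, and that spread may be technical. All values are log2 signals made by RMA, so a difference of 1 is 2-fold, and differences are Daxx minus vector unless another pair is named.

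Thrombospondins bind integrins, CD47 and other receptors, and the first of them can activate latent TGF-beta. Fibronectin is assembled into fibrils by integrins and carries other matrix proteins, while tenascin C, periostin and SPARC are made by fibroblasts during tissue remodelling and tune adhesion and collagen assembly. Most of the listed proteins are produced by mesenchymal cells, and several are induced by TGF-beta.

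The Daxx probe set itself averaged 7.35 ± 0.0964 in the Daxx arrays and 7.15 ± 0.216 in the vector arrays (SD, n = 4 each). By an exact permutation test (two-sided) p was 0.143, and 0.0286 is the smallest p that 4 against 4 arrays allow, so directions below rest on the labels. Vector replicate 2 stood apart, with an interquartile range of 2.79 against 3.31 to 3.39 in the other 7 arrays. The median signal of olfactory receptor genes, used here as a mark of dim signal, was 5.21 on it and 4.65 to 4.70 on the others. For 7 of the 9 genes described here vector replicate 2 was also the lowest vector array, and results are given with and without it. Across all genes limma called 902 of 19938, of which 358 were higher and 544 lower. With the arrays set to a common median and interquartile range, 224 were higher and 534 lower. Fibroblast markers averaged 8.80 to 8.93 over the list in the Daxx arrays and 9.22 to 9.32 in the vector arrays. The mean signal lay below the 99th percentile of olfactory receptor genes for 2 of 13 fibroblast markers, 10 of 11 epithelial, 10 of 11 endothelial and 9 of 10 blood cell markers. All 9 matricellular genes averaged above that percentile, which was 6.84, and Thbs3 came nearest to it with a mean of 7.51 over the 8 arrays.

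Of the 9 genes, 4 were lower in the Daxx arrays, 0 were higher and 5 were not called at an adjusted p below 0.05. Svep1, Thbs1, Tgfbi and Thbs2 made up the lower group. Over all genes 4.52% were called, 2.73% lower and 1.8% higher. The median difference of the 9 genes was -0.25, and that of all genes was -0.03. In bulk RNA, fewer cells of a type and less RNA per cell cannot be told apart. Because the members were picked with results of this comparison known, these counts describe them and are no independent evidence.

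Promoter windows from RefSeq, on build GRCm38.p6, are shown for the lower genes for which the reference table held one. Each runs from 250 bases before to 50 bases after the annotated start, 5′ to 3′ on the gene's strand. Capitals mark matches to 6 short motifs searched on both strands. These were TATAAA for the TATA box, CCAAT for the CCAAT box, GGGCGG for the GC box, TGANTCA for AP-1, GGAATG for TEAD factors and CAGACA for SMAD factors.
Thbs2, chr17:14694213-14694512, minus strand: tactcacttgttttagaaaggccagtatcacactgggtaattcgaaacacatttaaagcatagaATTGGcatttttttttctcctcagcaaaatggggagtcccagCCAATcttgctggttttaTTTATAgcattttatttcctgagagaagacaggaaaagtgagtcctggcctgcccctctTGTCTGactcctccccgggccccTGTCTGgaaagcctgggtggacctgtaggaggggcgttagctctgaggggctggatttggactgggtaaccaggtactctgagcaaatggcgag
Svep1, chr4:58206547-58206846, minus strand: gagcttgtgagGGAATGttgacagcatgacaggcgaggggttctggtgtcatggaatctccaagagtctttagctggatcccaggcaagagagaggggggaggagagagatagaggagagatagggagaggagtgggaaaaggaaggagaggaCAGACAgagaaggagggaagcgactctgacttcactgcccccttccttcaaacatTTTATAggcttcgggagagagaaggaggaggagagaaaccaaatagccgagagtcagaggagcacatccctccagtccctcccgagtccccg
Tgfbi, chr13:56609336-56609635, plus strand: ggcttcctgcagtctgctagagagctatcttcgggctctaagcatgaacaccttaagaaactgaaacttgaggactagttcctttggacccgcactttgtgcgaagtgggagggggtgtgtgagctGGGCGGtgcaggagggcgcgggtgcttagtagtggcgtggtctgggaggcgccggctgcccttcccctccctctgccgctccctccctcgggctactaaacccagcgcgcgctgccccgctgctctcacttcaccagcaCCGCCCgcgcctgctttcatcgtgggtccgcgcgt

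The windows differed in composition, with a GC content of 48.3% for Thbs2, 54.3% for Svep1 and 63.3% for Tgfbi, against a median of 52.7% over all 32851 windows in the table. Thbs2 held a pair of CCAAT matches, a reverse TATA box match and a pair of SMAD-type matches, and the SMAD-type ones lay 67 and 44 bases before the start. Svep1 held 1 SMAD-type match, 97 bases before the start, 1 TEAD match at 239 bases and a reverse TATA box match at 42 bases. Tgfbi held only GC box matches, 1 of them 124 bases before the start. Of all windows, 21.0% held the SMAD-type letters, 37.4% CCAAT, 35.7% the GC box, 14.7% the TEAD letters, 13.6% TATAAA and 7.81% the AP-1 letters. No motif was present in all 3 windows, and a match of letters is not a binding site.

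Thrombospondins 1 and 2 form trimers, inhibit blood vessel growth and are the members of the family best known from fibroblasts. Thbs1 read 11.33 and 11.36 in DaxxA, 11.35 and 11.33 in DaxxB, and 12.24, 12.08, 12.25 and 12.22 in the vector arrays. The groups did not overlap, and the gap between the highest Daxx and the lowest vector value was 0.72. Thbs1 was 1.80-fold lower, a log2 difference of -0.85 (SE 0.055, 95% interval from -0.98 to -0.73, adjusted p = 5.47e-05). The standard deviation was 0.014 over the 4 Daxx arrays and 0.080 over the vector arrays. Without vector replicate 2 the difference was -0.89 (adjusted p = 2.37e-07).

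Thbs2 read 8.85 and 8.89 in DaxxA, 8.90 and 8.85 in DaxxB, and 9.56, 9.36, 9.55 and 9.56 in the vector arrays. All Daxx values were again below all vector values, and vector replicate 2 was the lowest of its group. Thbs2 was 1.56-fold lower, a log2 difference of -0.64 (SE 0.061, adjusted p = 0.000588). The standard deviation of the vector arrays was 0.100 with vector replicate 2 and 0.0043 without it, and without it Thbs2 fell by 0.69 (adjusted p = 1.69e-06).

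Thbs3, of the subgroup of thrombospondins that form pentamers, did not share this pattern. It read 7.48 and 7.42 in DaxxA, 7.56 and 7.55 in DaxxB, and 7.50, 7.54, 7.49 and 7.57 in the vector arrays. The groups overlapped, with DaxxA at the low end and DaxxB inside the vector range. The difference was -0.02 (SE 0.053, adjusted p = 0.849), with a 95% interval from -0.14 to 0.10, which does not reach the differences of Thbs1 and Thbs2.

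**Figure D1:**
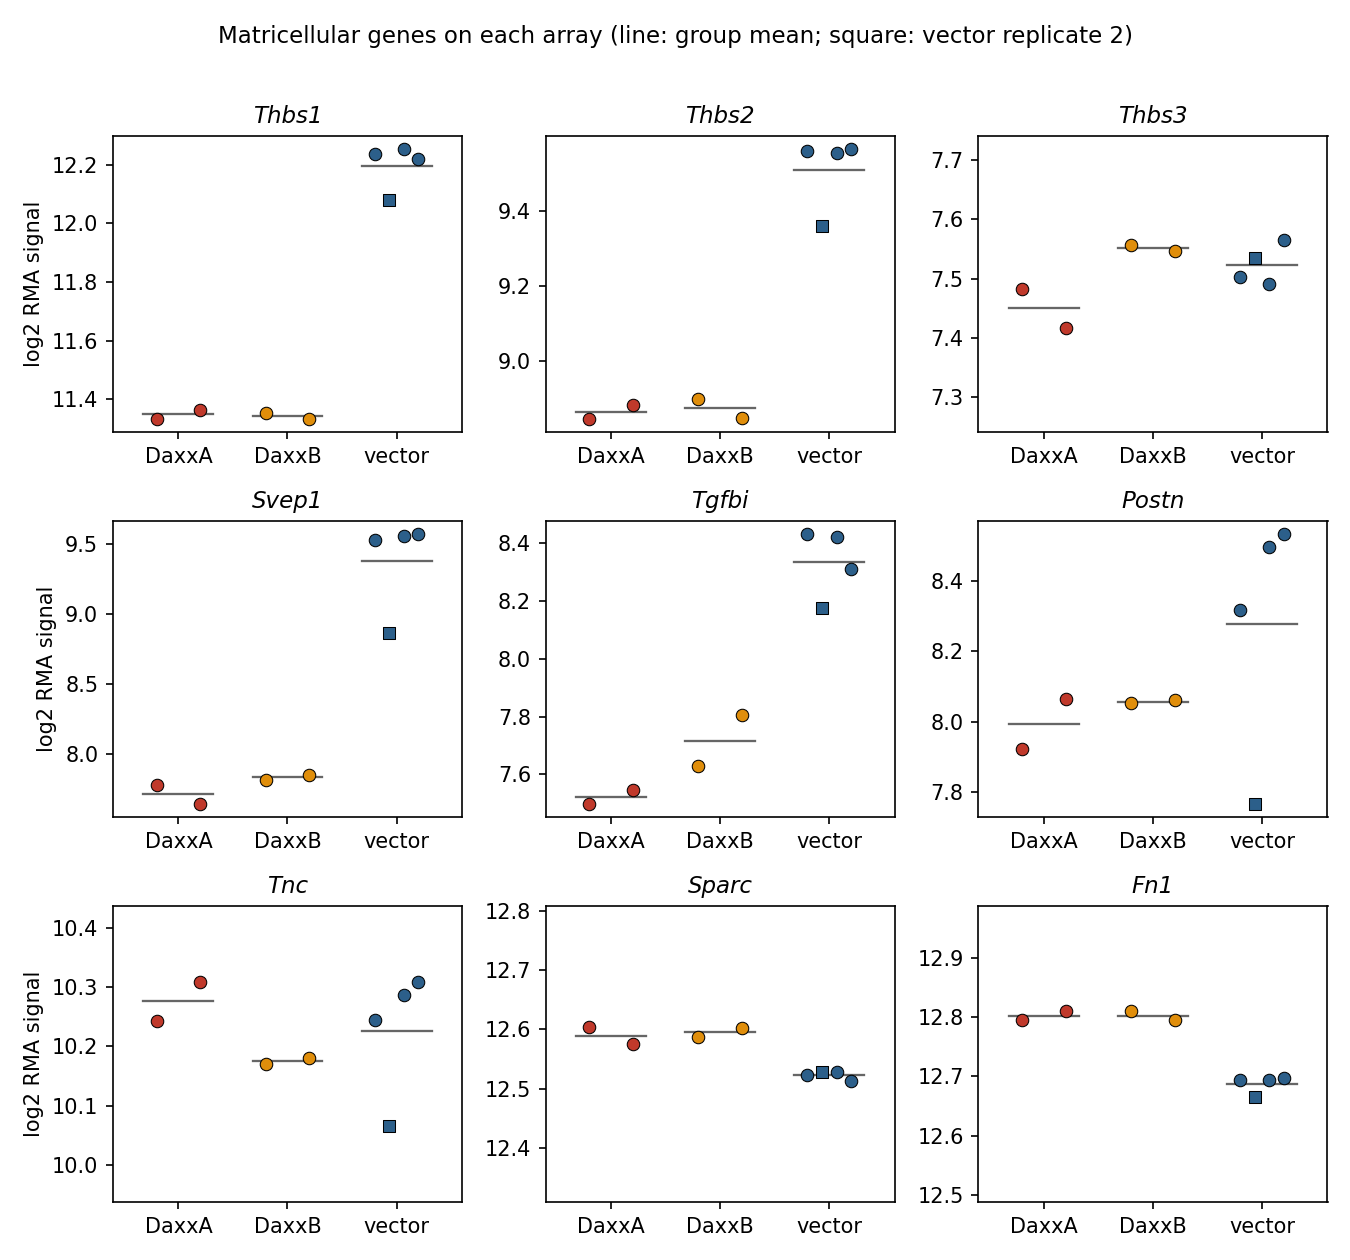
Log2 RMA signal of the 9 measured genes (vertical axis, a separate scale in each panel) on every DaxxA (red), DaxxB (orange) and vector (blue) array, with a line at each group mean and a square for vector replicate 2. Thbs1, Thbs2, Svep1 and Tgfbi are lower on every Daxx array than on any vector array, Fn1 and Sparc are higher by 0.12 and 0.07, and vector replicate 2 is the lowest vector value for 7 genes.

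Svep1 showed the largest difference of the 9 genes and the 8th largest absolute difference of all 19938. It encodes a large protein of sushi, pentraxin and growth factor-like domains that binds integrin alpha 9 beta 1 and is needed for lymphatic vessel growth in mice. Svep1 read 7.79 and 7.65 in DaxxA, 7.82 and 7.85 in DaxxB, and 9.53, 8.86, 9.56 and 9.57 in the vector arrays. The groups did not overlap, and vector replicate 2 lay 0.69 below the mean of the other vector arrays. Svep1 was 3.04-fold lower, a log2 difference of -1.60 (SE 0.154, 95% interval from -1.95 to -1.25, adjusted p = 0.000593). Without that array the difference was -1.77 (SE 0.053, adjusted p = 4.76e-08). Among all genes 0.241% were both called lower and at least 2-fold lower, and Svep1 was the 1 member in that class.

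Tgfbi and Postn encode the related fasciclin domain proteins TGF-beta-induced protein and periostin, which bind collagens and integrins. Tgfbi read 7.50 and 7.55 in DaxxA, 7.63 and 7.81 in DaxxB, and 8.43, 8.18, 8.42 and 8.31 in the vector arrays. Every Daxx value was below every vector value, and both DaxxA values were below both DaxxB values. Tgfbi was 1.64-fold lower, a log2 difference of -0.71 (SE 0.086, adjusted p = 0.00208). Without vector replicate 2 the difference was -0.77 (adjusted p = 5.63e-05).

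Postn, which promotes collagen crosslinking, depended on 1 array. It read 7.92 and 8.06 in DaxxA, 8.05 and 8.06 in DaxxB, and 8.32, 7.77, 8.50 and 8.53 in the vector arrays. Vector replicate 2 was below all Daxx arrays and the other 3 vector arrays were above them. The difference was -0.25 (SE 0.155, 95% interval from -0.61 to 0.10, adjusted p = 0.535) with all 8 arrays. Without vector replicate 2 Postn was 1.34-fold lower, a log2 difference of -0.42 (SE 0.061, adjusted p = 0.00121). The members called lower then numbered 5 and those called higher 0, where 12.8% of all genes were called, 7.57% lower and 5.26% higher.

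**Figure D2:**
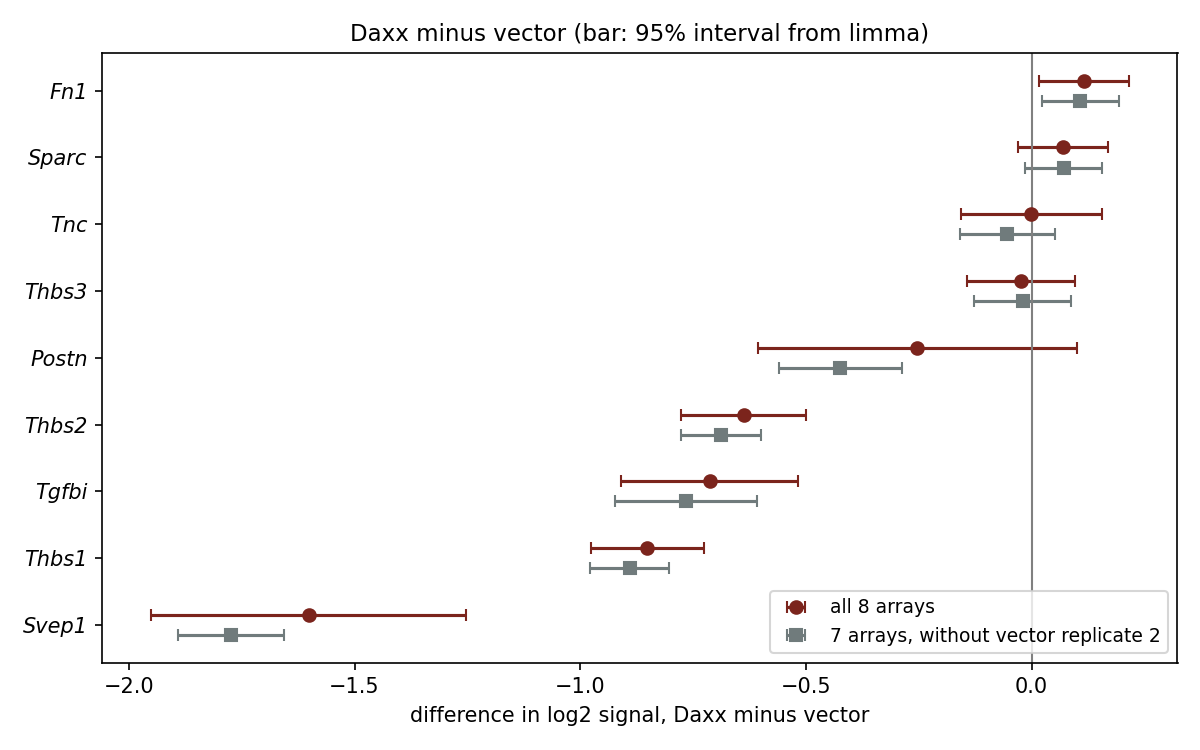
Difference in log2 signal, Daxx minus vector (horizontal axis), for each of the 9 genes with 95% intervals from limma, on all 8 arrays (dark circles) and on 7 arrays without vector replicate 2 (grey squares). Svep1 lies at -1.60 and Thbs1, Tgfbi and Thbs2 between -0.85 and -0.64 with intervals below 0, while the Postn interval excludes 0 on 7 arrays alone. The Fn1 interval lies above 0 in both fits, though Fn1 was called in neither.

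Tnc encodes tenascin C, a large anti-adhesive glycoprotein of wounds and tumour stroma. It read 10.24 and 10.31 in DaxxA, 10.17 and 10.18 in DaxxB, and 10.24, 10.07, 10.29 and 10.31 in the vector arrays. The groups overlapped, with both DaxxB values and the lower DaxxA value between vector replicate 2 and the other vector arrays, and the higher DaxxA value level with the highest vector array. The difference was -0.00043 (SE 0.068, adjusted p = 0.997), and its 95% interval from -0.16 to 0.15 allows a change of up to 1.11-fold either way.

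Fn1, fibronectin, and Sparc, a collagen-binding glycoprotein of remodelling tissue, had slightly higher values on all Daxx arrays than on any vector array. Fn1 read 12.79 and 12.81 in DaxxA, 12.81 and 12.80 in DaxxB, and 12.69, 12.67, 12.69 and 12.70 in the vector arrays. Sparc read 12.60 and 12.57 in DaxxA, 12.59 and 12.60 in DaxxB, and 12.52, 12.53, 12.53 and 12.51 in the vector arrays. The gap between the groups was 0.098 for Fn1 and 0.046 for Sparc.

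The difference of Fn1 was 0.12 (SE 0.044, 1.08-fold, adjusted p = 0.236), and it was -0.12 (adjusted p = 0.809) with the arrays set to a common median and interquartile range. With a prior spread that depends on signal, the same 0.12 had an adjusted p of 0.00605. For Sparc the difference was 0.07 (SE 0.044, 1.05-fold, adjusted p = 0.554), and it was -0.16 (adjusted p = 0.748) under the common scale. Of the alternatives tried, the prior that depends on signal alone gave a call of Fn1 and none gave one of Sparc. The direction of both genes turned on the common scale and in no other alternative. With vector replicate 2 left out, the difference was 0.11 for Fn1 (adjusted p = 0.105) and 0.07 for Sparc (adjusted p = 0.304). Among the 9 genes, 6 had groups that did not overlap, 4 of them lower and these 2 higher in the Daxx arrays. Over all genes 14.8% had groups that did not overlap, 6.79% lower and 8.02% higher. Without vector replicate 2 these were 7 of the 9 genes, Postn being the added one, and 24.4% of all genes.

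DaxxA and DaxxB were then set against the vector arrays separately, which both comparisons share. DaxxA gave 4 members lower and 0 higher, where 1.97% of all genes were called, 1.45% lower and 0.522% higher. DaxxB also gave 4 lower and 0 higher, where 2.69% of all genes were called, 1.92% lower and 0.767% higher. In both, the called genes were Thbs1, Thbs2, Svep1 and Tgfbi.

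Thbs1 fell by 0.85 in DaxxA (SE 0.069, adjusted p = 0.00135) and by 0.85 in DaxxB (adjusted p = 0.00115). Thbs2 fell by 0.64 in DaxxA (adjusted p = 0.00767) and by 0.63 in DaxxB (adjusted p = 0.00756). Svep1 fell by 1.66 in DaxxA (SE 0.200, adjusted p = 0.00767) and by 1.54 in DaxxB (adjusted p = 0.0096). Thbs1 and Thbs2 thus had close values under both names, while DaxxA minus DaxxB was -0.12 for Svep1. Tgfbi fell by 0.81 in DaxxA (SE 0.093, adjusted p = 0.00649) and by 0.62 in DaxxB (adjusted p = 0.0175).

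Leaving out either DaxxA array left Thbs1 as the only member called for DaxxA, and leaving out either DaxxB array left Thbs1 as the only one for DaxxB. The remaining single array was assumed to vary like the other groups. The DaxxB call of Tgfbi was also lost without either DaxxA array or without vector replicate 1, 3 or 4, with adjusted p-values between 0.0543 and 0.0683. Without vector replicate 2, Postn fell by 0.46 in DaxxA (adjusted p = 0.00174) and by 0.39 in DaxxB (adjusted p = 0.00322), the fifth lower member in each. Without that array 11.3% of all genes were called for DaxxA, 6.8% lower and 4.46% higher, and 20.5% for DaxxB, 9.53% lower and 10.9% higher. On the common scale Thbs1 was not called for DaxxA (-1.06, adjusted p = 0.0676) or DaxxB (-1.02, adjusted p = 0.0648).

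**Figure D3:**
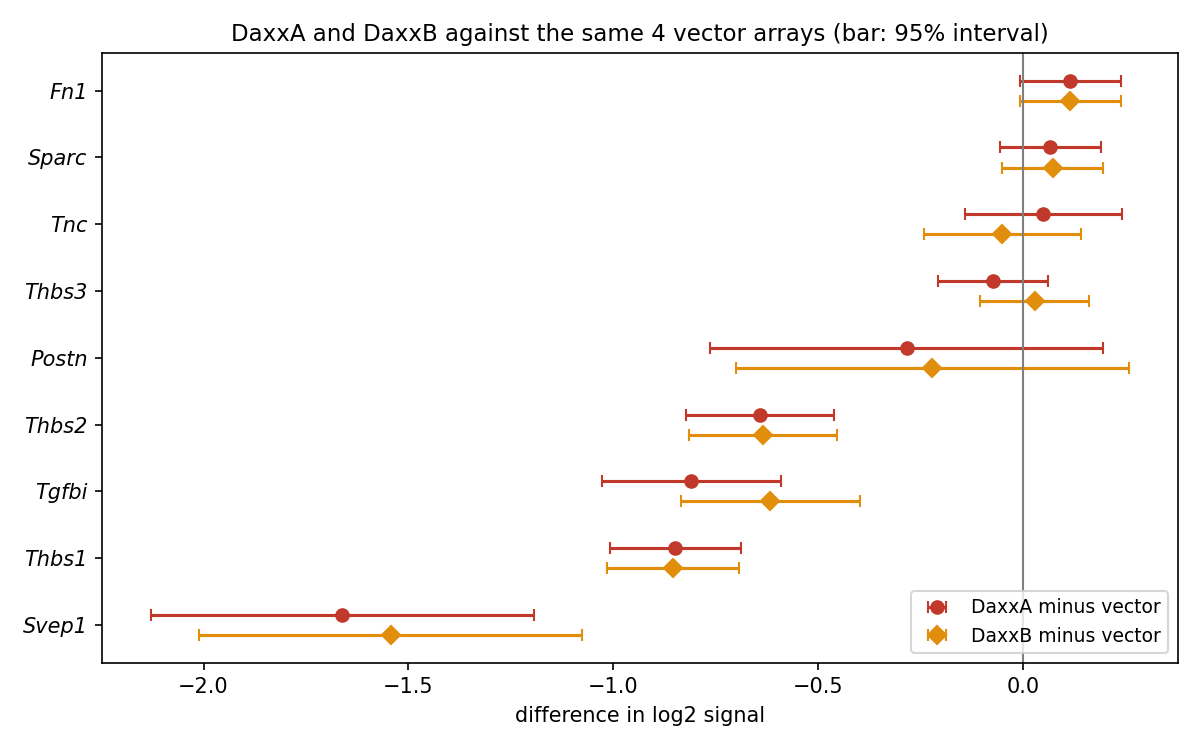
Difference in log2 signal from the 4 vector arrays (horizontal axis) for DaxxA (red circles) and DaxxB (orange diamonds), with 95% intervals from a limma fit of 3 groups. The paired points of Thbs1, Thbs2, Sparc and Fn1 nearly coincide, and the widest separation, 0.19, is that of Tgfbi.

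The direct test of DaxxA minus DaxxB called 0 of the 9 members and 0 of all 19938 genes (0%) by limma. At an unadjusted p below 0.05 the counts were 0 members and 846 genes. The differences of the members ran from -0.19 for Tgfbi (95% interval from -0.45 to 0.06) to 0.10 for Tnc (95% interval from -0.12 to 0.32). For Thbs1 the difference was 0.01 with a 95% interval from -0.18 to 0.19, and for Svep1 it was -0.12 with an interval from -0.66 to 0.42. Both DaxxA values lay below both DaxxB values for Thbs3, Svep1 and Tgfbi and above them for Tnc. With 2 arrays under each name such separation is frequent by chance. Its share over all genes was not counted, so no difference between the names is read from it. Without vector replicate 2 the test called 2.15% of all genes, 0.787% higher and 1.36% lower in DaxxA, and again 0 members, with Tgfbi at -0.19 and an adjusted p of 0.145.

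Other genes of matricellular proteins were read from a list drawn up by textbook role. Of 33 measured genes, 5 were lower, 0 higher and 28 not called, with a median difference of -0.13 against -0.03 over all genes. Of all genes, 2.73% were called lower and 1.8% higher. Without vector replicate 2 the list had 7 lower and 1 higher, and its median was -0.01 against 0.02 over all genes. In that fit 7.57% of all genes were lower and 5.26% higher. Ccn3, a CCN family protein that restrains growth, averaged 8.86 in the Daxx arrays and 9.61 in the vector arrays and fell 1.68-fold (adjusted p = 0.00805). Edil3, an integrin ligand, was lower, with 6.27 in the Daxx arrays and 6.85 in the vector arrays (adjusted p = 0.00593). Its mean over all arrays, 6.56, lay below the 99th percentile of olfactory receptor genes, as did those of 17 of the 33 genes of the list, so no fold is given. Npnt, nephronectin, a ligand of integrin alpha 8 beta 1, fell 1.35-fold (adjusted p = 0.0167), and Fstl1, a secreted SPARC-related protein, fell 1.29-fold (adjusted p = 0.00364). The fifth was Ccn5, with a difference of -0.59 (adjusted p = 0.0242). Leaving out single arrays other than vector replicate 2 gave 3 to 5 called genes, where 446 to 559 of all 19938 genes were called rather than 902. Over all 8 fits that left out an array, vector replicate 2 included, Ccn3, Edil3 and Fstl1 were called in 8, Npnt in 3 and Ccn5 in 2. On the common scale Fstl1 was not called (adjusted p = 0.121).

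Among receptors of matricellular proteins, 2 of 30 measured genes were lower, 2 higher and 26 not called. The counts were 4 lower and 4 higher without vector replicate 2, and 3 lower and 0 higher on the common scale. Of all genes, 2.73% were lower and 1.8% higher with all arrays, and 7.57% lower and 5.26% higher without vector replicate 2. Itga5, the alpha chain of the main fibronectin receptor, averaged 10.93 in the Daxx arrays and 10.58 in the vector arrays and rose 1.28-fold (adjusted p = 0.00822). Itga3, an alpha chain of laminin receptors that also binds thrombospondin 1, rose 1.20-fold (adjusted p = 0.0499). Egfr, the epidermal growth factor receptor, which tenascin C can engage, fell 1.36-fold (adjusted p = 0.0242). Itga1, a collagen receptor chain, was lower, with 5.87 in the Daxx arrays and 6.27 in the vector arrays (adjusted p = 0.00381). Its mean over all arrays was 6.07, below the 99th percentile of olfactory receptor genes like 15 of the 30 receptor genes. Itga3 and Egfr were each called in 1 of the 8 fits that left out an array, and neither Itga5 (adjusted p = 0.411) nor Itga3 (adjusted p = 0.115) was called on the common scale.

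Proteases and crosslinkers that act on these proteins held larger changes. Of 25 measured genes 4 were lower, 4 higher and 17 not called, with a median difference of 0.0011. Of all genes, 2.73% were called lower and 1.8% higher. Adamts5 and Adamts1, aggrecan-cleaving proteases of which Adamts1 also cleaves thrombospondins, fell by 1.26 (SE 0.086, adjusted p = 8.02e-05) and 1.20 on the log2 scale (SE 0.097, adjusted p = 0.000227). Lox, lysyl oxidase, averaged 11.44 in the Daxx arrays and 12.06 in the vector arrays (1.54-fold lower, adjusted p = 0.000699). Tgm2, a transglutaminase that crosslinks fibronectin, rose 1.77-fold (adjusted p = 0.00033). These 4 genes were called in all 8 fits that left out an array. The whole list had 7 lower and 5 higher without vector replicate 2, where 7.57% of all genes were lower and 5.26% higher. It had 5 or 6 called genes without any other single array, where 446 to 559 of all 19938 genes were called rather than 902.

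Upstream regulators known to control matricellular genes had 3 lower, 1 higher and 23 not called of 27 measured. Of all genes, 2.73% were called lower and 1.8% higher. Prrx1, a mesenchymal homeobox factor that can activate tenascin C transcription, fell 2.10-fold (SE 0.059, adjusted p = 3.14e-05). The TGF-beta receptor genes Tgfbr3, betaglycan, and Tgfbr2 fell 1.81-fold (adjusted p = 6.54e-05) and 1.31-fold (adjusted p = 0.0069). Jun, an AP-1 subunit, rose 1.30-fold (adjusted p = 0.0175), a call that held in 4 of the 8 fits without 1 array and not on the common scale (adjusted p = 0.0574). Without vector replicate 2 the counts were 4 lower and 4 higher, where 7.57% of all genes were lower and 5.26% higher.

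**Figure D4:**
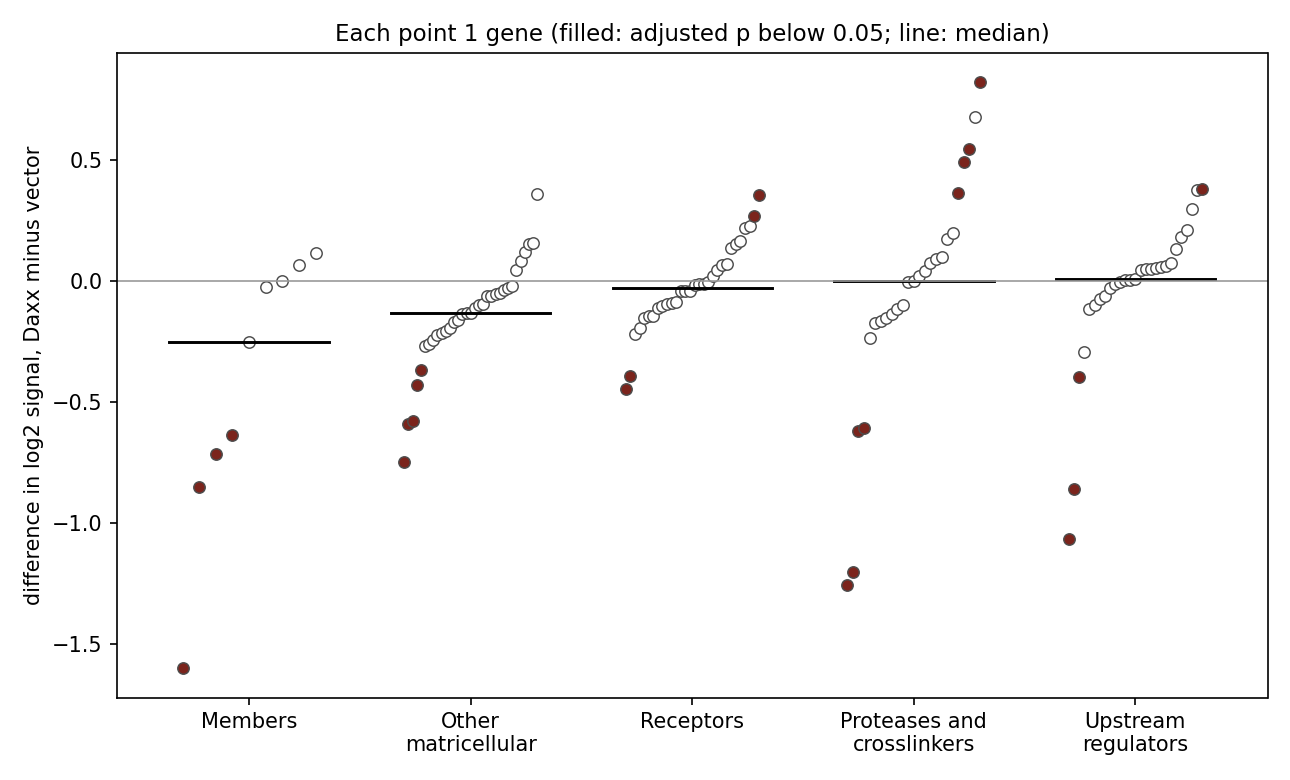
Difference in log2 signal, Daxx minus vector (vertical axis), of each gene of the 9 members and the 4 lists, with filled points for an adjusted p below 0.05 and a line at each median. Svep1, at -1.60, is the lowest point of all, and the proteases and crosslinkers have 4 filled points on either side of 0.

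Markers of cell types moved beside these genes. Of 13 fibroblast markers 5 were lower (Pdgfra, Pdgfrb, Dcn, Prrx1 and Twist2) and 1 higher (Col1a2), where 2.73% of all genes were lower and 1.8% higher. Of 10 smooth muscle and pericyte markers 3 were higher (Acta2, Tagln and Smtn) and 0 lower, and the list mean ran from 7.30 to 7.42 in the Daxx arrays and from 7.11 to 7.33 in the vector arrays. The value of 7.33 was that of vector replicate 2, and the other vector arrays ran from 7.11 to 7.20. Of 9 neural markers 2 were higher (Map2 by 0.60, adjusted p = 0.0104, and Nes by 0.50, adjusted p = 0.0230) and 0 lower. The median difference of the neural list was -0.02, and 0.10 without vector replicate 2. The mean signal lay below the 99th percentile of olfactory receptor genes for 7 of the 9 neural markers. The same held for 7 of 8 adipocyte, 6 of 9 cartilage and bone and 5 of 10 smooth muscle and pericyte markers. Of 8 adipocyte markers 1 was lower (Pparg, -0.34, adjusted p = 0.0373) and 0 higher, and of 9 cartilage and bone markers 0 were called. The epithelial, endothelial and blood cell lists also had 0 called genes. At an adjusted p below 0.05 without vector replicate 2, the fibroblast markers had 6 lower and 1 higher. There, 1 cartilage and bone marker was also higher and 1 endothelial marker lower. In that fit 7.57% of all genes were lower and 5.26% higher. Their part in the differences of the matricellular genes was not tested.

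For each called member, the 2 genes with the most similar profile over the 8 arrays were found by the root mean square difference of values centred on each gene's mean. Nearest to Thbs1 were Fgfr2, a fibroblast growth factor receptor, and Cp, ceruloplasmin, with root mean square differences of 0.039 and 0.041. Those nearest to Thbs2 were Lox, at 0.027, and Pros1, protein S of coagulation, at 0.031. Svep1 was followed by Rspo2, an activator of Wnt signalling, at 0.121, and Fgf10, a mesenchymal growth factor, at 0.150. Tgfbi was followed by Lgals3bp, a galectin-binding glycoprotein, at 0.056, and B4galnt1, a ganglioside synthase, at 0.081. In these 8 genes the difference between Daxx and vector was close to that of the member because the measure selects for it, and all were lower in the Daxx arrays. The largest of the 8 was Rspo2, which averaged 5.97 in the Daxx arrays and 7.60 in the vector arrays, with a mean over all arrays of 6.78, below the 99th percentile of olfactory receptor genes.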

How the data were processed

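RNA of 8 samples was copied by linear amplification, labelled with biotin and measured on Affymetrix arrays, per the labels' protocols. The authors deposited log2 values, for which the submitters' processing notes name Affymetrix Expression Console and RMA. RMA in general aligns the distributions of the arrays, so a shift common to nearly all genes would not show. No software version was stated, and the number of arrays limits the precision.

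Of 35556 probe sets, 21789 had 1 gene symbol in the platform annotation, 1621 several and 12146 none. The probe set with the highest mean was taken for each of 19938 genes, of which 19856 matched the GRCm38.p6 table by gene number. Tests used lmFit and eBayes of limma 3.58.1 (R 4.3.3), Benjamini-Hochberg adjusted over all genes, with 2 conditions for Daxx minus vector and 3 groups sharing 1 spread otherwise.

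Members and lists were chosen with earlier results of these data known. The genes named were all members, the called genes with the lowest adjusted p in each list (4 at most), the 2 nearest profiles of each called member, without predicted genes, olfactory receptors and small RNAs. Ccn5 and the cell markers that moved were named after their values were seen. Alternatives were each array left out, a block on replicate number, a mean signal of at least 6 and a common median and interquartile range. Others were array weights, a trended robust prior and the mean of probe sets. For Daxx minus vector, though not for the list counts, the mean of DaxxA and DaxxB from the fit of 3 groups was added. Promoter windows came from RefSeq (GRCm38.p6), which held 8 of the 10 members.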

Additional observations from a re-analysis of the deposited data

Results flagged for a closer look

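Among the 18 groups of 4 arrays examined (Daxx and vector for 9 genes), 4 held an array far from the other 3 by Dixon's criterion, which chance meets in about 1 of 20 groups. Vector replicate 2 was that array 3 times, reading 9.36 for Thbs2, 8.86 for Svep1 and 12.67 for Fn1, each the lowest vector value. DaxxA replicate 1 was the lowest of the 4 Daxx arrays for Postn, at 7.92.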

How the results depend on the processing

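Thbs1, Thbs2 and Svep1 were called lower in Daxx minus vector in all 15 alternatives (Thbs1 from -1.04 to -0.81, Thbs2 from -0.71 to -0.59, Svep1 from -1.77 to -1.42). The signal filter, the trended prior, the mean of probe sets and the fit of 3 groups left these differences as they were. Tgfbi was called in 14, the exception being the replicate block (-0.68, adjusted p = 0.089). Same-numbered samples had correlations of their deviations between 0.0238 and 0.162. DaxxA and DaxxB held 2 arrays each, whose deviations mirror each other, so these values cannot settle whether equal numbers mark shared handling. The replicate block kept only replicates 1 and 2 of each group in the comparison, since numbers 3 and 4 occurred in the vector group alone. Vector replicate 2 was among the vector arrays left. The called genes with the block were 162 of all genes rather than 902, 3 members, 0 members for DaxxA and 0 for DaxxB. They included 0 other matricellular genes rather than 5, 0 receptors rather than 4, 3 proteases and crosslinkers rather than 8 and 2 regulators rather than 4. Array weights gave 3231 of all genes, 9 other matricellular genes, 9 receptors and 9 regulators. Regulators numbered 8 with the signal filter, where 1326 of all 13251 genes kept were called. They numbered 7 with the trended prior, where 1287 of all 19938 genes were called. Leaving out 1 array gave 446 to 2558 of all genes, 4 to 5 members, 1 to 5 for DaxxA and for DaxxB, 3 to 8 other matricellular genes, 2 to 8 receptors, 5 to 12 proteases and crosslinkers and 3 to 8 regulators, while the Daxx probe set differed by 0.096 to 0.26 with exact permutation p-values of 0.0857 to 0.314.

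Signs turned only for differences that were not called. Tnc was 0.071 with the block and -0.054 to 0.027 without 1 array, and Thbs3 -0.042 to 0.0048 without 1 array. For DaxxA minus vector, Tnc was -0.081 on the common scale and -0.0039 to 0.083 without 1 array. DaxxB minus vector with the block gave 0.021 for Tnc and 0.015 for Postn. The common scale gave -0.16, -0.19 and -0.13 for Sparc (Daxx, DaxxA and DaxxB minus vector) and -0.12, -0.14 and -0.088 for Fn1. For DaxxA minus DaxxB it gave -0.034 for Thbs1. That contrast without 1 array gave -0.0089 to 0.019 for Thbs1, -0.035 to 0.018 for Thbs2, -0.13 to 0.0081 for Postn and -0.0205 to 0.0089 for Sparc. The causes were not tested.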
